A study of Rattus norvegicus with 9 samples.

Results

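The mRNAs of 8 genes that set how long inflammatory transcripts last were followed in RBL-2H3, a mast cell (MC) model line from a rat basophilic leukemia. The genes were chosen by symbol, and all 8 were found among the 18006 genes with a value in the 9 RNA-seq samples. They are the ZFP36 family (Zfp36, Zfp36l1 and Zfp36l2), the Regnases (Zc3h12a and Zc3h12c), the Roquins (Rc3h1 and Rc3h2) and the RNA-stabilizing protein HuR (Elavl1).

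The samples form 3 groups of n = 3. The DNP samples were sensitized for 12 h with 50 ng/mL IgE against the hapten DNP and then stimulated with 100 ng/mL of the antigen DNP-HSA, for 4 h in both label fields. The PF samples had the same sensitization and antigen after 1 h of pretreatment with PF, which neither the labels nor the paper identify. Their stimulation lasted 4 h by one label field and 4, 5 and 6 h in replicates 1, 2 and 3 by another, so the effect of PF and that of a longer stimulation cannot be told apart in replicates 2 and 3. The Ctrl samples are labelled untreated in one field, while the protocol field describes sensitization and stimulation without an exception, so whether they received IgE is not settled. No label says that samples came from separate cultures, and the p-values measure only the spread between these samples, which may be technical. All samples are of the same cell line, which the labels also list as peripheral blood.

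Of 10 mast cell markers, 8 had values, and all 8 averaged at least 1 FPKM in each group. FPKM counts the fragments of a gene per length of the gene and per total mapped. Summed over these markers, levels were 2558 to 2591 FPKM in Ctrl, 2456 to 2478 FPKM in DNP and 2581 to 2610 FPKM in PF samples. Single markers moved both ways within these sums. By limma (adjusted p up to 0.05), 4 were higher and 3 lower in PF than in Ctrl samples, where 57.7% of all genes were called. Tpsab1 and Tpsb2, the mast cell tryptases, had no value in the files. Of 10 markers of T cells, B cells, macrophages, fibroblasts, epithelium and endothelium, Cd3e and Pecam1 had group means of at least 1 FPKM, and the sum of the 10 ranged from 67.1 to 71.5 FPKM in Ctrl, 64.2 to 69.3 FPKM in DNP and 53.5 to 58.9 FPKM in PF samples. Most of this sum was Pecam1, which averaged 60.5, 57.4 and 45.6 FPKM in Ctrl, DNP and PF samples. Among the defining markers, Cd3d was listed at 0 in all DNP and PF samples and Lyz2 in all PF samples. Their part in the differences below was not tested. The deposited values summed to 573023 to 591539 FPKM in Ctrl and DNP samples and to 610206 to 630069 FPKM in PF samples, and the total number of reads is unknown. In such bulk samples, fewer cells of a type and less RNA per cell cannot be told apart.

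The 8 proteins act on the 3′ ends of short-lived mRNAs. ZFP36 proteins bind AU-rich elements and bring in the CCR4-NOT complex, which removes the poly(A) tail, and HuR binds similar elements and in general protects the transcript. Regnase-1 is an endonuclease that cuts stem-loops in inflammatory mRNAs, and the Roquins bind stem-loops called constitutive decay elements and also recruit CCR4-NOT. In MCs and other immune cells the ZFP36 proteins, Regnase-1 and the Roquins limit cytokine transcripts such as Tnf, and several of these genes are themselves early response genes.

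The promoters of Zfp36 and Zfp36l1 are shown because these paralogs moved in opposite directions after antigen. RefSeq promoter sequences (build GRCr8) matched 7 of the 8 genes, Rc3h2 being the exception, and each run covers the 250 bases before the start given in that table, 5′ to 3′ in the direction of transcription. For Zfp36l1 the start in the table lies inside the annotated span of the gene. Capitals mark the motif matches described next.
Zfp36, chr1:92799109-92799358, minus strand: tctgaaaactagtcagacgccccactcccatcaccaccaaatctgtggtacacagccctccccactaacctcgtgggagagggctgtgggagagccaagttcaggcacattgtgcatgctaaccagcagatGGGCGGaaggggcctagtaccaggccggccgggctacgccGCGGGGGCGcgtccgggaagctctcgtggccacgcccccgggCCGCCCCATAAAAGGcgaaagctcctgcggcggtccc
Zfp36l1, chr6:104668691-104668940, minus strand: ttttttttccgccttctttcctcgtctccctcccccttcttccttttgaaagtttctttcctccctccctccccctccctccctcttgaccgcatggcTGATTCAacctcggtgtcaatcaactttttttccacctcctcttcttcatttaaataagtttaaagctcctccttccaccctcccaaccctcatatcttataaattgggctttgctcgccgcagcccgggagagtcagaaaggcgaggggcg

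Motifs of known factors were searched on both strands. The window of Zfp36 held an EGR motif (GCGNGGGCG) 79 bases before the start, a CArG box (the site of serum response factor) 32 bases before it, and GC boxes (GGGCGG) 119 and 37 bases before it, the last overlapping the CArG box by 1 base. The window of Zfp36l1 held an AP-1 motif (TGANTCA) 152 bases before the start and none of the others. In 33469 rat promoters of the same length, 6.34% held the AP-1 motif, 4.29% the EGR motif, 1.497% a CArG box and 30.5% a GC box. The other motifs, a CRE (TGACGTCA, in 1.59%) and a kappaB site (in 3.54%), were found in none of the 7 windows. Zfp36l2, Zc3h12a, Zc3h12c and Rc3h1 held only GC boxes, 5, 5, 2 and 1 of them, and Elavl1 held no match. These are letter matches in a fixed window, and they say nothing of binding in these cells.

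After antigen, Zfp36l1 more than doubled while Zfp36 fell. Of the 8 genes, 4 changed between DNP and Ctrl samples by limma (adjusted p up to 0.05). Zfp36l1 and Elavl1 were higher, and Zfp36 and Zc3h12a were lower. Over all 10392 genes tested, 29.2% were called, 14.7% as higher and 14.4% as lower. The 4 called genes also had values that did not overlap between the groups, as was the case for 45.8% of all genes tested. With 3 samples against 3, the two-sided exact permutation test of a single gene cannot give a p below 0.1, and it gave 0.1 for each of these 4.

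In PF samples Zfp36l1 was back near its Ctrl level and both Regnases were at their lowest. Between PF and DNP samples 5 of the 8 genes changed, with Zfp36 and Zfp36l2 higher and Zfp36l1, Zc3h12a and Zc3h12c lower, against 48.8% of all 10329 genes tested (18.1% higher and 30.7% lower). Between PF and Ctrl samples 5 changed, with Zfp36l1 and Zfp36l2 higher and Zc3h12a, Zc3h12c and Rc3h1 lower, against 57.7% of 10361 genes (23.1% higher and 34.6% lower). The called genes did not overlap between the groups in either comparison, as held for 57.6% and 64.8% of all genes. A count of 5 of 8 is near these shares of all genes. The balance of higher and lower calls over all genes depended on the scaling in both comparisons with PF. Of the calls between PF and DNP, 37.1% were higher as deposited, 48.0% after scaling by median ratios and 16.8% with every sample brought to one common FPKM sum (equalized sums), and between PF and Ctrl these shares were 40.0%, 48.0% and 26.7%. With only the PF sample that has 4 h in both label fields, a setting chosen after seeing the data, 5 genes were still called between PF and DNP but 2, the Regnases, between PF and Ctrl. The 3 comparisons share samples and are not independent of each other.

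**Figure D1:**
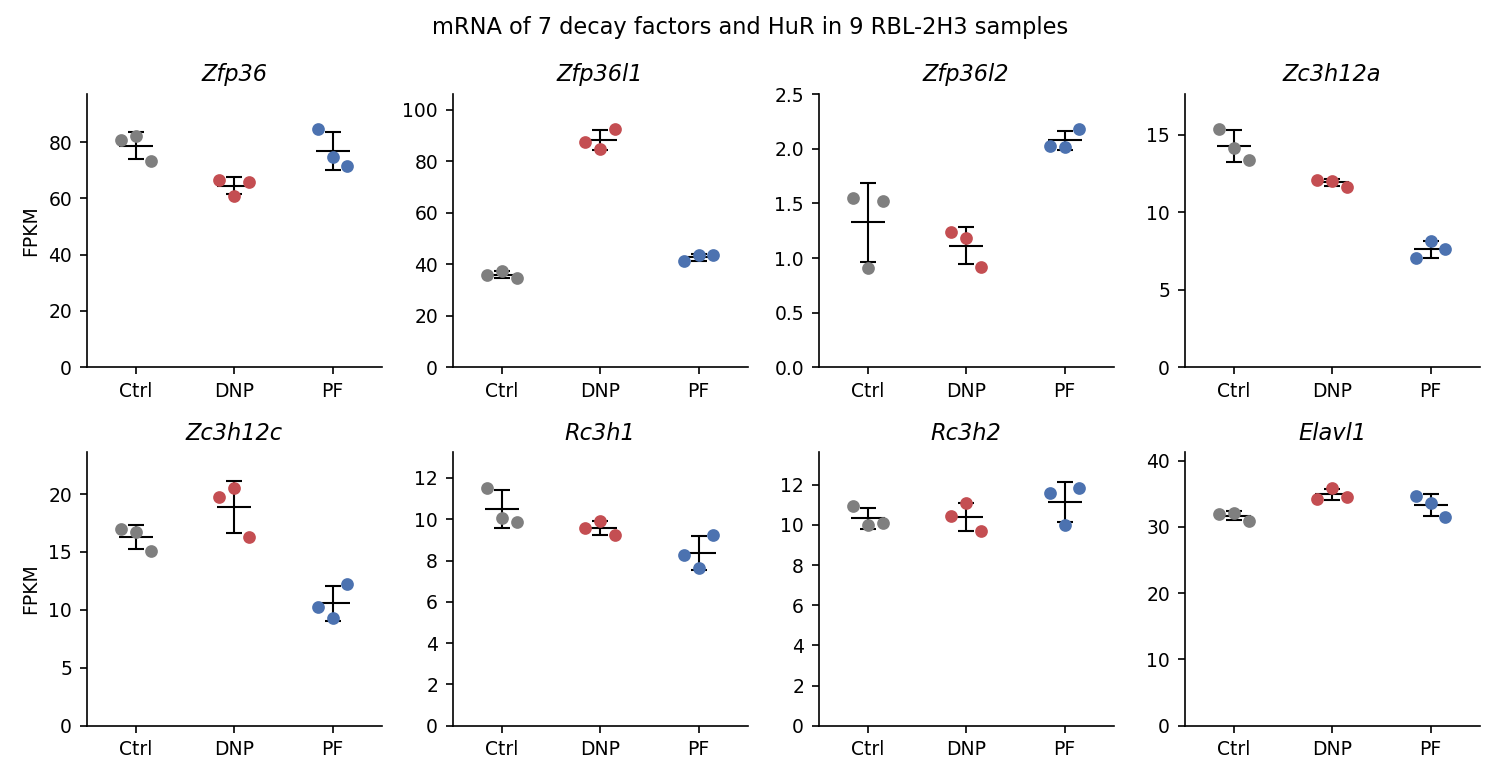
FPKM of the 8 genes in each of the 9 samples (points), with the mean and SD of each group of 3 samples (bars) and every axis starting at 0. Zfp36l1 stands out in the 3 DNP samples, at 84.7 to 92.4 FPKM against 34.5 to 43.5 FPKM in the other 6, and Zc3h12a and Zc3h12c are lowest in the 3 PF samples.

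**Figure D2:**
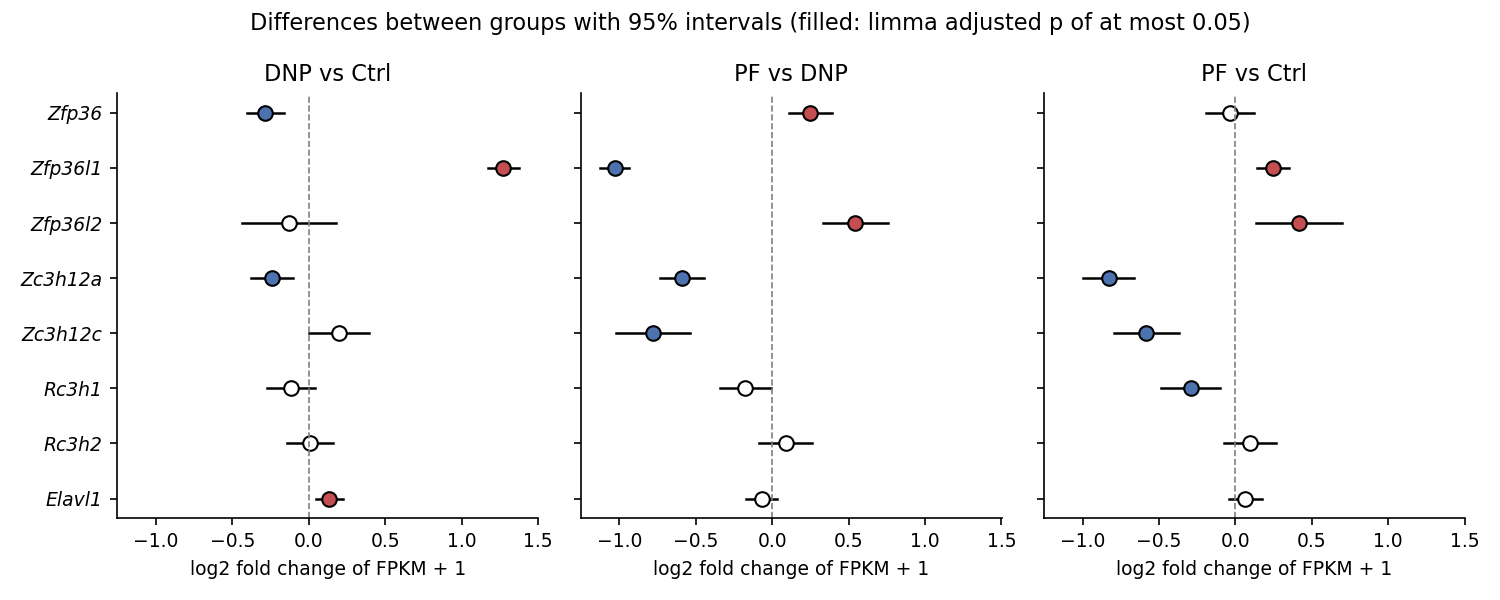
Difference between group means on the log2(FPKM + 1) scale for each gene in the 3 comparisons (points) with 95% intervals from limma (lines), filled where the adjusted p is at most 0.05. The interval of Zfp36l1 runs from 1.17 to 1.38 in DNP vs Ctrl and from -1.13 to -0.93 in PF vs DNP, and those of Rc3h2 include 0 in all 3 comparisons.

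Zfp36 encodes tristetraprolin, the best studied AU-rich element binding protein. Its level was 80.9, 82.2 and 73.3 FPKM in the Ctrl samples, 66.5, 61.0 and 65.8 FPKM in the DNP samples and 84.6, 74.8 and 71.5 FPKM in the PF samples. All DNP samples were below all others, and the Ctrl and PF samples overlapped. Zfp36 fell by 0.29 on the log2 scale from Ctrl to DNP (SE 0.0532, limma adjusted p = 0.00563), from 78.8 ± 4.81 to 64.4 ± 3.004 FPKM (SD, n = 3). It was higher by 0.25 in PF than in DNP samples (SE 0.0623, limma adjusted p = 0.00970), and this call was lost with equalized sums (0.15, adjusted p = 0.0625). The difference between PF and Ctrl was -0.04 on the log2 scale, with a 95% interval from -0.19 to 0.12.

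Zfp36l1 encodes a paralog of tristetraprolin with the same kind of tandem zinc fingers. Its level was 35.9, 37.2 and 34.5 FPKM in Ctrl, 87.4, 84.7 and 92.4 FPKM in DNP and 41.0, 43.5 and 43.4 FPKM in PF samples. The groups did not overlap, and DNP stood well above both others. From Ctrl to DNP the mean increased 2.46-fold, from 35.9 ± 1.35 to 88.2 ± 3.87 FPKM (SD, n = 3), a log2 difference of 1.27 (SE 0.0446, limma adjusted p = 1.17e-06) that ranked number 22 from the highest among the 10392 genes. In PF samples it averaged 42.6 ± 1.39 FPKM (SD, n = 3), 0.484 times the DNP level, a log2 difference of -1.03 (SE 0.0427, limma adjusted p = 6.15e-07). It remained 1.19-fold above Ctrl in PF samples (log2 difference 0.24, SE 0.0456, limma adjusted p = 0.00200), and with only the PF sample of 4 h in both fields this difference was 0.19 (adjusted p = 0.0711).

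Zfp36l2 encodes the third family member, and it was close to the filter of 1 FPKM. It measured 1.55, 0.91 and 1.52 FPKM in Ctrl, 1.24, 1.18 and 0.92 FPKM in DNP and 2.03, 2.02 and 2.18 FPKM in PF samples. The PF samples were above all others, while Ctrl and DNP overlapped. It was higher in PF than in DNP samples by 0.54 on the log2(FPKM + 1) scale (SE 0.0942, limma adjusted p = 0.00143) and higher than in Ctrl by 0.42 (SE 0.123, limma adjusted p = 0.0183). That second call was lost without PF replicate 3 (adjusted p = 0.0526) and with only the PF sample of 4 h in both fields (adjusted p = 0.146). At such levels the added 1 makes the log2 difference smaller than the ratio of the means, which was 1.87 against DNP and 1.57 against Ctrl. The DNP and Ctrl samples differed by -0.13 on this scale (95% interval -0.44 to 0.18).

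Within each sample, the balance between Zfp36l1 and Zfp36 shifted. Zfp36l1 was 0.443, 0.453 and 0.471 times the level of Zfp36 in Ctrl samples, 1.31, 1.39 and 1.40 times in DNP samples and 0.485, 0.582 and 0.607 times in PF samples. None of these ranges overlapped (two-sided exact permutation p = 0.1 for each pair of groups, the smallest possible). Since both values come from the same sample, this ratio does not depend on how samples are scaled. Zfp36l1 made up 30.9% ± 0.632 of the summed FPKM of the 3 family members in Ctrl, 57.4% ± 0.907 in DNP and 35.1% ± 2.62 in PF samples (SD, n = 3). The sum itself was 116 ± 5.85 FPKM in Ctrl, 154 ± 6.22 FPKM in DNP and 122 ± 5.44 FPKM in PF samples (SD, n = 3). DNP was above both other groups in each sample, and PF and Ctrl overlapped (exact permutation p = 0.5). The order of the paralogs was therefore Zfp36 above Zfp36l1 in Ctrl and PF and the reverse in DNP samples, with Zfp36l2 last throughout.

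**Figure D3:**
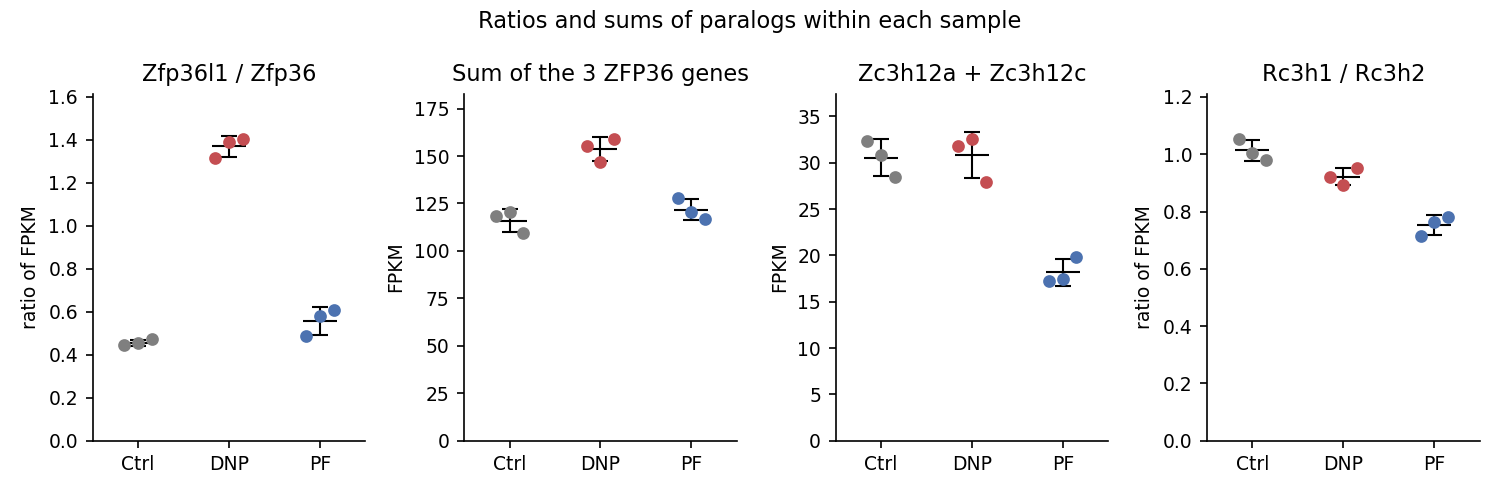
Ratios and sums of related genes within each sample (points), with the mean and SD of each group (bars). Zfp36l1 exceeds Zfp36 only in the 3 DNP samples (1.31 to 1.40), the summed Regnase FPKM is lowest in the 3 PF samples (17.2 to 19.9), and Rc3h1 relative to Rc3h2 is ordered Ctrl, DNP, PF without overlap.

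Zc3h12a encodes Regnase-1, the endonuclease of the set. It measured 15.4, 14.1 and 13.4 FPKM in Ctrl, 12.1, 12.0 and 11.7 FPKM in DNP and 7.02, 8.16 and 7.65 FPKM in PF samples. The groups did not overlap, and PF was lowest. Zc3h12a fell by 0.24 on the log2 scale from Ctrl to DNP (SE 0.0593, limma adjusted p = 0.0179), a call lost without DNP replicate 3 (adjusted p = 0.0598). The PF mean of 7.61 ± 0.571 FPKM (SD, n = 3) was 0.638 times the DNP mean (log2 difference -0.59, SE 0.0632, limma adjusted p = 9.60e-05) and 0.533 times the Ctrl mean (log2 difference -0.83, SE 0.0732, limma adjusted p = 3.15e-05).

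Zc3h12c encodes Regnase-3, a relative of Regnase-1. Its values were 17.0, 16.8 and 15.1 FPKM in Ctrl, 19.7, 20.6 and 16.3 FPKM in DNP and 10.2, 9.29 and 12.2 FPKM in PF samples. PF was below all other samples, and DNP overlapped Ctrl through its replicate 3. The DNP samples differed from Ctrl by 0.20 on the log2 scale (95% interval -0.00 to 0.40, limma adjusted p = 0.122), and without DNP replicate 3 the difference was 0.29 and was called (adjusted p = 0.0211). From DNP to PF it fell by 0.78 on the log2 scale (SE 0.107, limma adjusted p = 0.000391) and against Ctrl its log2 difference was -0.58 (SE 0.0935, limma adjusted p = 0.000850). Both Regnases were called lower in PF under each scaling and with only the PF sample of 4 h in both fields.

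The summed FPKM of the Regnases was 30.6 ± 1.99 in Ctrl and 30.8 ± 2.48 in DNP samples (SD, n = 3; exact permutation p = 0.9), and 18.2 ± 1.46 in PF samples. Every PF sample was below every other sample, at 0.591 times the DNP mean. Zc3h12a relative to Zc3h12c was 0.878 ± 0.0319 in Ctrl and 0.638 ± 0.0684 in DNP samples, without overlap, and 0.730 ± 0.132 in PF samples, which overlapped both. Other Regnases were near 0 or without a value. Zc3h12d reached at most 0.19 FPKM, and Zc3h12b had no value.

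Rc3h1 encodes Roquin-1, a RING finger protein that binds constitutive decay elements. Its values were 11.5, 10.1 and 9.87 FPKM in Ctrl, 9.60, 9.91 and 9.22 FPKM in DNP and 8.28, 7.62 and 9.25 FPKM in PF samples. Ctrl overlapped DNP and DNP overlapped PF, while PF lay below Ctrl. The difference between PF and Ctrl was -0.29 on the log2 scale (SE 0.0841, limma adjusted p = 0.0163). This call was lost without Ctrl replicate 1 (adjusted p = 0.0567), without PF replicate 2 (adjusted p = 0.0545) and with only the PF sample of 4 h in both fields (adjusted p = 0.0652). DNP differed from Ctrl by -0.12 (95% interval -0.27 to 0.04) and PF from DNP by -0.18 (95% interval -0.34 to -0.01, limma adjusted p = 0.0743). The latter was called without PF replicate 3 (-0.24, adjusted p = 0.0205) and with equalized sums (-0.26, adjusted p = 0.0217).

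Rc3h2 encodes Roquin-2, which overlaps with Roquin-1 in function. It measured 10.9, 10.0 and 10.1 FPKM in Ctrl, 10.4, 11.1 and 9.68 FPKM in DNP and 11.6, 9.99 and 11.9 FPKM in PF samples, and all 3 groups overlapped. No comparison was called. The log2 differences were 0.01 for DNP against Ctrl (95% interval -0.14 to 0.16), 0.09 for PF against DNP (95% interval -0.08 to 0.26) and 0.10 for PF against Ctrl (95% interval -0.07 to 0.27). Within samples, Rc3h1 relative to Rc3h2 was 1.05, 1.01 and 0.980 in Ctrl, 0.920, 0.894 and 0.952 in DNP and 0.714, 0.763 and 0.781 in PF samples. This ratio separated all 3 groups, Ctrl highest and PF lowest (exact permutation p = 0.1 for each pair), although the sum of both Roquins overlapped between every pair of groups, at 20.8 ± 1.43, 20.0 ± 1.05 and 19.5 ± 1.77 FPKM (SD, n = 3).

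Elavl1 encodes HuR, which opposes the ZFP36 proteins on many AU-rich transcripts. Its values were 32.0, 32.2 and 31.0 FPKM in Ctrl, 34.3, 35.9 and 34.6 FPKM in DNP and 34.8, 33.6 and 31.5 FPKM in PF samples. DNP lay just above Ctrl, and PF overlapped both. The mean increased 1.10-fold from Ctrl to DNP (log2 difference 0.13, SE 0.0384, limma adjusted p = 0.0307), and the call was lost without any 1 of the 6 samples (adjusted p from 0.0504 to 0.109). PF differed from DNP by -0.07 (95% interval -0.17 to 0.03) and from Ctrl by 0.07 (95% interval -0.04 to 0.18). With equalized sums, PF was called lower than DNP (-0.17, adjusted p = 0.0163). The summed ZFP36 family stood at 3.66 ± 0.111 times the Elavl1 level in Ctrl, 4.41 ± 0.277 times in DNP and 3.66 ± 0.0669 times in PF samples, with DNP above both other groups in every sample.

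On the FPKM scale, which corrects for gene length, the mean levels in Ctrl samples ran in the order Zfp36, Zfp36l1, Elavl1, Zc3h12c, Zc3h12a, Rc3h1, Rc3h2 and Zfp36l2. Ranges overlapped between Zc3h12c and Zc3h12a and between Rc3h1 and Rc3h2. Within each Ctrl sample, however, Zc3h12a was below Zc3h12c, at 0.843 to 0.905 times its level. Rc3h1 was at 0.980 to 1.05 times the level of Rc3h2. In DNP samples the order was Zfp36l1, Zfp36, Elavl1, Zc3h12c, Zc3h12a, Rc3h2, Rc3h1 and Zfp36l2, with overlap between the Roquins. In PF samples it was Zfp36, Zfp36l1, Elavl1, Rc3h2, Zc3h12c, Rc3h1, Zc3h12a and Zfp36l2, with overlap between Rc3h2 and Zc3h12c and between Rc3h1 and Zc3h12a. The spread between replicates, as SD over mean, ran from 1.97% for Zc3h12a in DNP samples to 27.2% for Zfp36l2 in Ctrl samples. Among other paralogs, Zfp36l3 reached at most 0.25 FPKM, and Elavl2, Elavl3 and Elavl4 at most 0.29, 0.21 and 0.04 FPKM, so none was tested.

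For the 4 genes whose group means spanned at least 0.5 on the log2 scale, the genes with the most similar pattern over the 9 samples were found by Pearson's r among 10504 genes. The points are 3 groups of 3 samples, so a high r mainly reflects the order of the group means and is given as a description. Zfp36l1 was most like Ccl2, a monocyte chemoattractant (r = 0.997), Slc35e4 (r = 0.993) and Fam107b (r = 0.992), all 3 highest in DNP samples, and 44 genes had an r of at least 0.95 with it. Zc3h12a was most like Cd244, an immune cell receptor (r = 0.995), Dnajb1, a heat shock co-chaperone (r = 0.995), and Cyp27b1, the enzyme that activates vitamin D (r = 0.993). This falling pattern was common, with 643 genes at an r of at least 0.95. Zc3h12c was most like Trip13 (r = 0.989), Xpnpep3 (r = 0.980) and Dock10 (r = 0.977). Zfp36l2 was most like Cip2a (r = 0.962), Pafah1b1 (r = 0.947) and RGD1597339 (r = 0.947), and only Cip2a reached 0.95.

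The ZFP36 proteins and the Roquins act through deadenylases, whose mRNAs were called about as often as all genes after antigen. Of 16 subunits and relatives of CCR4-NOT and PAN2-PAN3, 1 was higher in DNP than in Ctrl samples, 4 were lower and 11 were not called (29.2% of all genes were called), with a median log2 difference of -0.02 against -0.01 over all genes tested. Between PF and DNP, 1 was higher and 7 were lower (48.8% of all genes called, median -0.11 against -0.04 over all genes), and between PF and Ctrl 2 were higher and 8 lower (57.7% called, median -0.15 against -0.05). After scaling by median ratios these counts became 3 higher and 5 lower in both, and with equalized sums 1 higher with 9 and 11 lower. Tob2, an adaptor that links RNA-binding proteins to the CAF1 deadenylases, averaged 20.5 FPKM in Ctrl, 13.2 FPKM in DNP and 8.82 FPKM in PF samples. It was called lower in each comparison, by a log2 difference of -0.60 in DNP vs Ctrl (limma adjusted p = 7.62e-05) and of -0.53 in PF vs DNP (limma adjusted p = 6.51e-05). Its paralog Tob1 went the other way in PF samples, at 21.0 FPKM against 11.6 FPKM in DNP (log2 difference 0.81, limma adjusted p = 1.42e-05). Cnot4, a ubiquitin ligase associated with the complex, fell by 0.67 on the log2 scale from DNP to PF, from 57.7 to 36.0 FPKM (limma adjusted p = 3.50e-06). Pan3, a PAN2 cofactor, fell by 0.28 from Ctrl to DNP, from 28.5 to 23.2 FPKM (limma adjusted p = 0.00484).

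Decapping and 5′-to-3′ decay follow deadenylation. Of 10 such genes tested between DNP and Ctrl, 1 was called, against 29.2% of all genes. It was Patl1, which fell from 50.4 to 43.8 FPKM (log2 difference -0.20, limma adjusted p = 0.0150). In PF against DNP, 2 of 9 were higher and 3 lower, where 48.8% of all genes were called. Edc3, an enhancer of decapping, was at 11.8 FPKM in DNP and 7.78 FPKM in PF samples (log2 difference -0.55, limma adjusted p = 8.77e-05), and Xrn1, the 5′-to-3′ exonuclease, at 9.81 and 6.57 FPKM (log2 difference -0.52, limma adjusted p = 0.00118). Edc4, a decapping scaffold, was higher, at 20.3 FPKM in PF against 16.8 FPKM in DNP samples (log2 difference 0.26, limma adjusted p = 0.00108). In PF against Ctrl, 2 of 9 were higher and 4 lower (57.7% of all genes called). Dcp1b, 1 of the lower genes, averaged 1.13 FPKM in Ctrl and 0.577 FPKM in PF samples. It reached the filter of 1 FPKM only through the Ctrl samples, so it could be called only as lower. With only the PF sample of 4 h in both fields, its log2 difference was -0.37, and -0.44 with all PF samples.

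Of 9 other proteins that bind AU-rich or related elements, 1 was higher and 1 lower in DNP than in Ctrl, against 29.2% of all genes called (median log2 difference -0.02). In each comparison with PF 5 were called, all as higher (medians 0.16 against DNP and 0.13 against Ctrl). Of all genes, 48.8% and 57.7% were called in these comparisons, 18.1% and 23.1% as higher. The number called in either direction was thus near the share of all genes, while the number called higher was above that share. After scaling by median ratios 6 were higher in each. With equalized sums 3 were higher in each, and with only the PF sample of 4 h in both fields 5 were higher against DNP and 3 against Ctrl. Hnrnpd encodes AUF1, which binds many of the same elements, and averaged 66.2 FPKM in Ctrl, 82.3 FPKM in DNP and 99.4 FPKM in PF samples. Its log2 difference was 0.31 in DNP vs Ctrl (limma adjusted p = 0.00286) and 0.27 in PF vs DNP (limma adjusted p = 0.000510), and it was called higher under each scaling.

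Kinases, proteases and adaptors act on the decay factors as proteins. Of 11 tested, 3 were called in DNP against Ctrl, all as higher, which is near the 29.2% of all genes called. In PF against DNP 1 was higher and 6 were lower, against 48.8% of all genes called. Mapkapk2 encodes MK2, the kinase that phosphorylates tristetraprolin, and it rose from 75.0 to 97.0 FPKM after antigen (log2 difference 0.37, limma adjusted p = 0.000297). Mapk14, the p38 kinase upstream of MK2, rose from 35.8 to 41.9 FPKM (log2 difference 0.22, limma adjusted p = 0.00810) and was at 33.3 FPKM in PF samples (log2 difference -0.32 against DNP, limma adjusted p = 0.000123). Bcl10, a partner of the protease MALT1 that cleaves Regnase-1 and the Roquins, was at 63.3 FPKM in DNP and 45.0 FPKM in PF samples (log2 difference -0.48, limma adjusted p = 0.000153). Malt1 itself averaged 4.52, 4.70 and 4.51 FPKM in Ctrl, DNP and PF samples and was not called in any comparison. Tbk1, a kinase, and Btrc, the ubiquitin ligase subunit that recognizes phosphorylated Regnase-1, were lower in PF than in DNP samples by log2 differences of -0.31 and -0.26 (limma adjusted p = 0.000659 and 0.00212). In PF against Ctrl, 4 of the 11 were higher and 5 lower (57.7% of all genes called), and with only the PF sample of 4 h in both fields 2 were higher and 2 lower.

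Of 16 known targets of the ZFP36 family, 14 had values in the files and 8 passed the filter on low values. In DNP against Ctrl 4 of the 8 were called, all as higher, against 14.7% of all genes higher and 14.4% lower (median log2 difference 0.27 against -0.01 over all genes). Il3, a mast cell growth factor, was at 4.07, 3.96 and 4.50 FPKM in Ctrl, 17.7, 21.1 and 21.5 FPKM in DNP and 6.63, 7.94 and 7.42 FPKM in PF samples. Its log2 difference was 2.02 in DNP vs Ctrl (limma adjusted p = 2.47e-06) and -1.34 in PF vs DNP (limma adjusted p = 4.47e-06). Ccl2 and Ptgs2, the gene of cyclooxygenase-2, were also highest in DNP, while Ptgs2 was not called between PF and Ctrl (log2 difference 0.04). Ccl2 averaged 224, 677 and 273 FPKM in Ctrl, DNP and PF samples, and Ptgs2 564, 886 and 581 FPKM. Myc, a growth regulator, rose by 0.21 from Ctrl to DNP (limma adjusted p = 0.0290) and fell by 0.79 from DNP to PF, to 29.5 FPKM (limma adjusted p = 7.57e-06).

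Tnf, the classical target of tristetraprolin and also a Roquin and Regnase-1 target, was instead highest in PF samples. It measured 7.63, 6.15 and 5.32 FPKM in Ctrl, 9.24, 7.49 and 8.15 FPKM in DNP and 20.7, 15.4 and 15.2 FPKM in PF samples. The DNP and Ctrl samples overlapped, and Tnf was not called between them (log2 difference 0.34, limma adjusted p = 0.0606). The PF samples were all above the others, with a log2 difference of 0.95 against DNP (limma adjusted p = 0.000214) and of 1.29 against Ctrl (limma adjusted p = 9.36e-05). Over the 8 genes, PF against DNP gave 2 higher and 4 lower (median -0.24). Of all genes, 48.8% were called there, 18.1% as higher and 30.7% as lower. PF against Ctrl gave 5 higher and 1 lower (median 0.26), where 57.7% were called, 23.1% as higher and 34.6% as lower. After scaling by median ratios 3 of the 8 were higher against DNP, and with equalized sums 4 were higher against Ctrl.

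Of 11 targets of Regnase-1 or Roquin, 10 had values and 7 were tested, of which Tnf and Ptgs2 are also on the ZFP36 list. In DNP against Ctrl, 2 were higher and 1 lower (29.2% of all genes called, median -0.07). Nfkbiz, which encodes the NF-kappaB cofactor IkappaB-zeta, was at 40.9, 37.9 and 32.2 FPKM in Ctrl, 24.3, 20.8 and 22.3 FPKM in DNP and 57.4, 53.3 and 56.0 FPKM in PF samples. DNP was lowest and PF highest, without overlap, with log2 differences of -0.69 in DNP vs Ctrl (limma adjusted p = 0.00104) and 1.27 in PF vs DNP (limma adjusted p = 8.25e-07). Nfkbid, a related cofactor, was also higher in PF, at 9.42 FPKM against 5.93 FPKM in DNP samples (log2 difference 0.59, limma adjusted p = 0.000347). Icos, a costimulatory receptor and the best known Roquin target, was lower in PF than in Ctrl samples, at 14.0 against 20.3 FPKM (log2 difference -0.51, limma adjusted p = 5.14e-05). In all, PF against DNP gave 4 higher and 2 lower (median 0.15), against 18.1% of all genes higher and 30.7% lower. PF against Ctrl gave 4 higher and 1 lower (median 0.34), against 23.1% higher and 34.6% lower. FPKM measures how much transcript was present, and RNA stability was not measured in these samples.

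**Figure D4:**
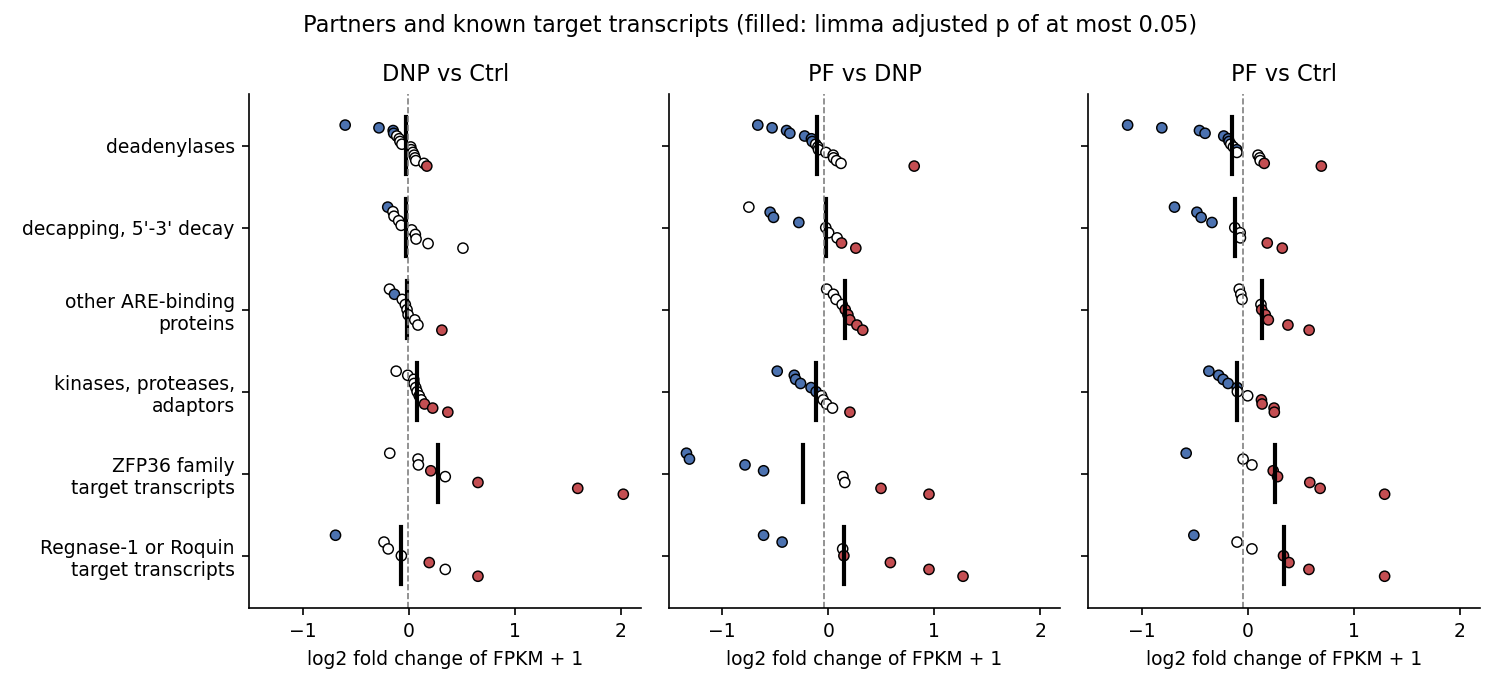
Log2 differences of the tested genes of 6 lists in the 3 comparisons (points, filled where the limma adjusted p is at most 0.05), with the median of each list (vertical bar) and of all genes tested (dashed line). The median of the ZFP36 targets is 0.27 in DNP vs Ctrl, -0.24 in PF vs DNP and 0.26 in PF vs Ctrl, and that of the deadenylases is -0.02, -0.11 and -0.15.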

How the data were processed

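RNA-seq of 9 RBL-2H3 samples (Ctrl, DNP and PF, 3 each) was analysed. By the paper's methods and the submitters' processing notes, the authors filtered reads with SOAPnuke, mapped them with HISAT2 2.0.4 to rn6, aligned them with Bowtie2 2.2.5 and quantified genes with RSEM 1.2.12. The annotation is not given in the sources used here. The authors deposited 1 normalized value per gene and sample, read here as FPKM because values have decimals and sum to different totals, though the heading names no unit. Of 38490 gene rows, 20484 had no value and 18006 were used.

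Genes reaching 1 FPKM in 3 or more of 6 compared samples were tested on log2(FPKM + 1) with limma 3.58.1 in R 4.3.3 (eBayes with trend), with Benjamini-Hochberg adjustment over all genes tested and a threshold of 0.05. For low genes, this scale makes changes look smaller. No counts were given, so counting error is unknown and precision rests on 3 samples per group. Low values of 10 genes, in whole steps within 4%, put relative depth at 0.984 to 1.02. Only genes whose values kept such steps across the samples were used, so this estimate could not show larger differences in depth. The test was checked on simulated data with changes of a single size, which is larger than most called differences of the 8 genes. Smaller changes were not covered by this check. The 8 genes and all lists were chosen with earlier results of these data known. From each list and comparison, named genes were taken from the 4 called genes with the largest change, and the 3 genes most like a member were named where its group means spanned at least 0.5. Malt1 was named outside that rule, with its values known. Alternatives were a pseudocount of 0.1, no filter, scaling by median ratios or to equalized sums, all 9 samples in one fit, the replicate block, no trend, each sample left out and a threshold of 0.01.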

Additional observations from a re-analysis of the deposited data

How the results depend on the processing

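No called value of the 8 genes changed sign under any alternative run. Of 352 values of single genes under the alternatives, 327 stayed on the same side of the threshold. Some of these that were never called changed sign. The log2 difference of Zfp36 in PF vs Ctrl, -0.036 with all samples, reached 0.015 when 1 sample was left out. At an adjusted p of at most 0.01, DNP vs Ctrl gave 1469 genes and 2 of the 8, and PF vs Ctrl gave 3 of the 8. With only the PF sample of 4 h in both label fields, chosen after seeing the data and with the lone sample assumed to vary like the other group, PF vs Ctrl gave 2 of the 8 and 4022 genes, and PF vs DNP 5 of the 8 and 3633 genes.

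Leaving out 1 sample at a time gave 2099 to 2736 genes and 3 of the 8 in DNP vs Ctrl, 4138 to 4796 genes and 5 to 6 of the 8 in PF vs DNP, and 5147 to 5541 genes and 4 to 5 of the 8 in PF vs Ctrl. Elavl1 in DNP vs Ctrl was also lost without trend (adjusted p = 0.0538). Equalizing the sums moved the median of all genes from -0.04 to -0.13 in PF vs DNP and from -0.05 to -0.12 in PF vs Ctrl. The cause of these changes was not tested.

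Deviations of samples with the same replicate number correlated at -0.0739 to 0.0514 in DNP vs Ctrl. The range was -0.0822 to 0.000490 in PF vs DNP and 0.0830 to 0.189 in PF vs Ctrl. In these comparisons 2, 0 and 6 of 6 samples correlated best with their own number. The numbers were not taken as pairs in the main test, although in PF vs Ctrl every sample matched its own number best. With the replicate block, 2697, 4675 and 6009 genes and 4, 5 and 5 of the 8 were called, and in DNP vs Ctrl Zc3h12c was gained (adjusted p = 0.0394) and Elavl1 lost (adjusted p = 0.0500058).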
